A study of Mus musculus with 12 samples.

Results

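Immediate early genes are switched on within minutes of a stimulus, and 40 of them were followed in mouse bone marrow LSK cells. LSK cells lack mature lineage markers and carry Sca1 and c-Kit, and they include haematopoietic stem cells and early progenitors. The 40 genes were taken from a list by symbol, and all 40 were among the 55487 genes listed. The list was chosen with earlier results of these data known, so it is not independent of them. Of the 40, 39 passed the filter on low counts that left 16649 genes for testing, and the exception was Nr4a3. The series holds 12 libraries of sorted LSK cells, 4 for each genotype. The genotypes are Yy1-/- Smc3+/-, Yy1-/- and, as the wild type, Yy1+/+. Yy1 encodes a DNA-binding transcription factor with zinc fingers, and Smc3 encodes a subunit of the cohesin ring. The driver that deleted the alleles, the age and sex of the mice, the sort days and the number of mice per library are not given in the sources used here, so p-values measure the spread between libraries, which may be partly technical.

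Immediate early genes need no new protein for their induction. MAP kinase signalling reaches serum response factor and CREB, which sit at their promoters in advance, and NF-kB drives a further group. The first products are mostly transcription factors of the AP-1, Egr, Nr4a and Klf families, and phosphatases and RNA decay factors made at the same time shut the response down again. In stem and progenitor cells several of these factors, among them Egr1, Nr4a1, Junb and Klf6, are known regulators of quiescence, growth or differentiation. The same genes are also known to be induced when tissue is dissociated and cells are sorted, and the transcripts are short-lived. The label of the list names both settings, and which of them raised a transcript in a given library was not tested.

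Each library summed to 38671354 to 69086104 expected counts, with Yy1+/+ replicate 2 the deepest. Levels are CPM, in which TMM factors set the library sizes, and are given for each library in the order of its replicate number, an arbitrary number within the genotype. Yy1 had 0.772 to 4.45 CPM in the libraries labelled Yy1-/- Smc3+/-, 0.407 to 12.2 CPM in Yy1-/- and 33.9 to 41.3 CPM in Yy1+/+. Smc3 had 254 to 344 CPM in the libraries labelled Yy1-/- Smc3+/-, 200 to 306 CPM in Yy1-/- and 160 to 214 CPM in Yy1+/+, so its RNA did not set the heterozygous label apart and that genotype is named below as labelled. The genes used for the sort were detected in every library. Ly6a, which encodes Sca1, had 150 to 335 CPM in the libraries labelled Yy1-/- Smc3+/-, 180 to 380 CPM in Yy1-/- and 151 to 226 CPM in Yy1+/+. Kit, which encodes c-Kit, had 180 to 373, 100 to 242 and 422 to 981 CPM in the same 3 genotypes and was lower in both mutants (edgeR adjusted p = 0.00246 in libraries labelled Yy1-/- Smc3+/- and 0.000455 in Yy1-/-).

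Some early genes were called lower in the mutants than in Yy1+/+, most were not called, and the set varied widely between the 4 wild-type libraries. In libraries labelled Yy1-/- Smc3+/- against Yy1+/+, 8 of the 39 tested members were lower (20.5%) and 0 were higher, where 16.7% of all tested genes were lower and 13.1% higher. The share of members lower was close to that of all genes in this comparison. In Yy1-/- against Yy1+/+, 16 of 39 were lower (41.0%) and 0 were higher, where 18.8% of all tested genes were lower and 16.3% higher. A call here is a Benjamini-Hochberg adjusted p under 0.05 over all genes in edgeR's quasi-likelihood F test. The estimated change was below 0 for 36 of 39 members in the first comparison and 35 of 39 in the second. The median log2 fold change of the members was -1.27 in the libraries labelled Yy1-/- Smc3+/- and -1.78 in Yy1-/-, against 0.02 and 0.0058 for all genes. At an unadjusted p under 0.05 the counts were 16 and 26 members. Every call in the libraries labelled Yy1-/- Smc3+/- was lost when its replicate 3 or its replicate 4 was left out. Both comparisons use the same 4 Yy1+/+ libraries, so they are not independent of each other. In bulk RNA, fewer cells of a type and less RNA per cell cannot be told apart.

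The libraries of the genotypes overlapped for most members although the estimated changes were large. No member had every library labelled Yy1-/- Smc3+/- below every Yy1+/+ library, where this was so for 17.6% of all tested genes. Only Maff, Nr4a2 and Dusp5 had every Yy1-/- library below every Yy1+/+ library, which is 7.69% of the members, where the share of all tested genes was 17.5%. In the opposite direction 0 members separated in either comparison, where 14.7% and 13.4% of all tested genes did.

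**Figure D1:**
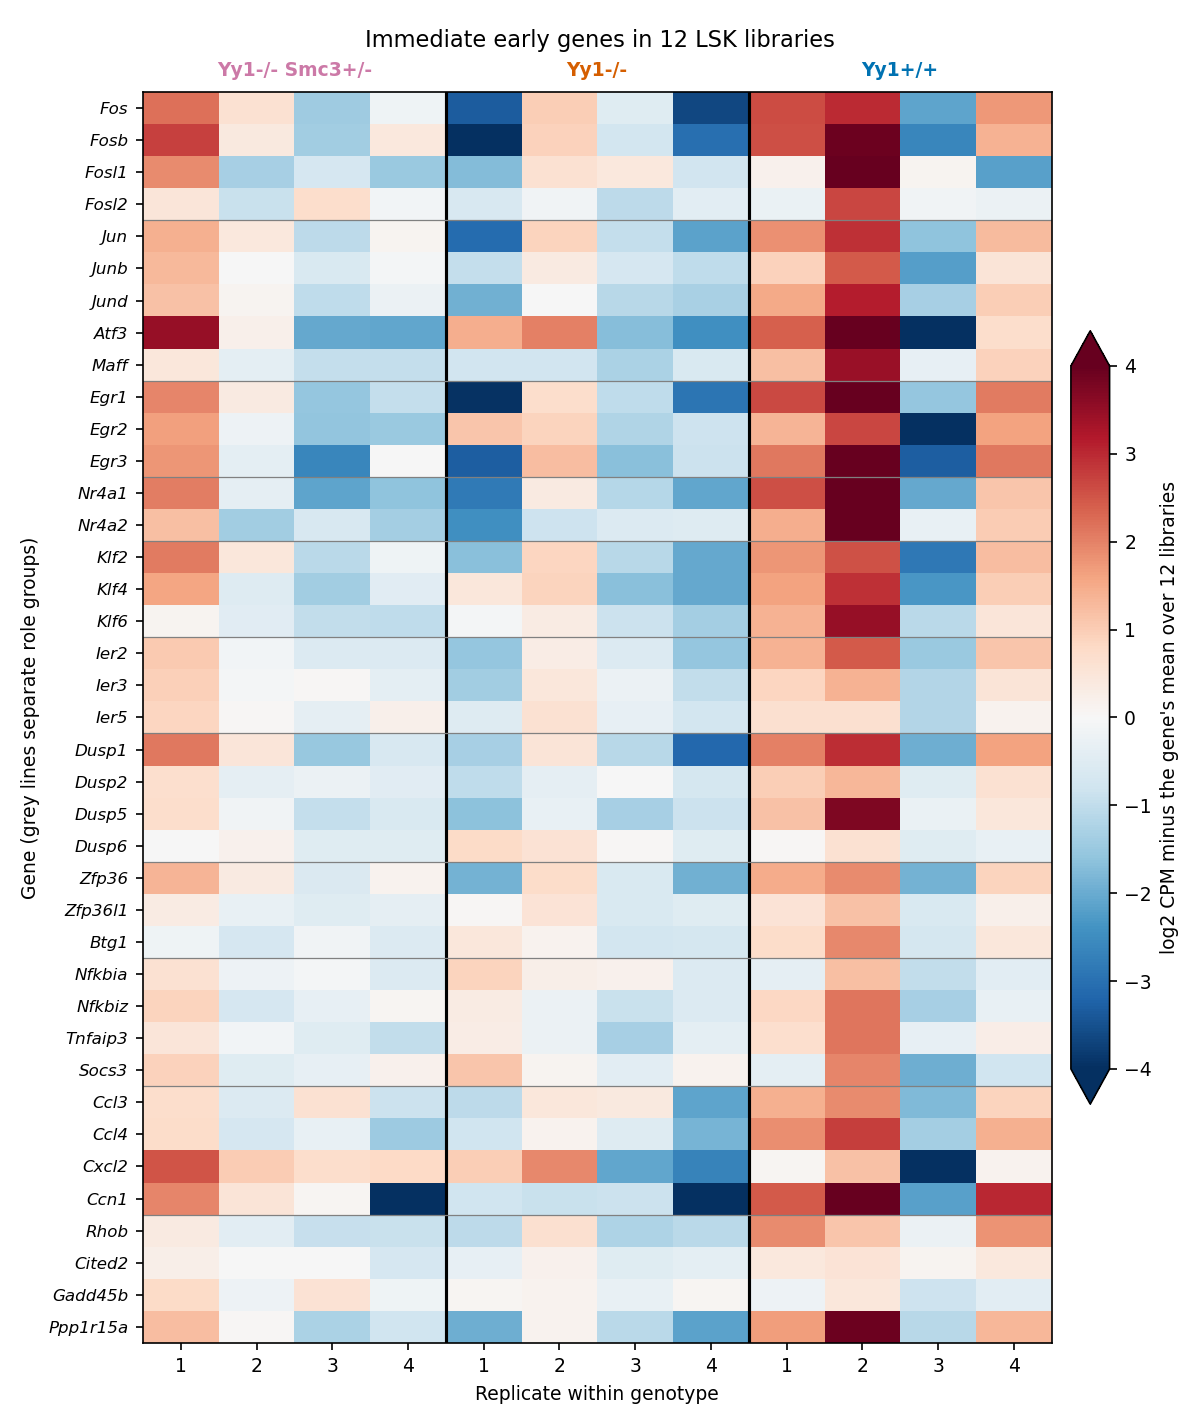
Log2 CPM of the 39 tested members (down the page, in role groups) in 12 libraries (across, by genotype and replicate), each gene relative to its own mean over the 12 libraries, with red above and blue below the mean; the colour scale ends at 4 in both directions. Yy1-/- Smc3+/- replicate 1 is the reddest mutant column, Yy1+/+ replicate 2 is red in nearly every row, and Yy1+/+ replicate 3 is mostly blue.

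Most members were high in the same libraries and low in the same libraries. Among the libraries labelled Yy1-/- Smc3+/-, replicate 1 was the highest of its genotype for 37 of 40 members, and Yy1-/- replicate 2 was the highest of its genotype for 28 of 40. Yy1+/+ replicate 2 had the highest level of all 12 libraries for 35 of the 40 members. Yy1+/+ replicate 3 had the lowest level of its genotype for 38 of 40, and it was below the Yy1-/- mean for 33 of 40. Relative to each gene's mean over the 12 libraries, the median member stood at 1.06, -0.15, -0.61 and -0.53 on the log2 scale in replicates 1 to 4 of those labelled Yy1-/- Smc3+/-. The median member stood at -0.95, 0.37, -0.85 and -1.02 in Yy1-/- and at 1.38, 2.67, -1.34 and 0.88 in Yy1+/+. The same median over all tested genes lay between -0.06 and 0.05 in every library. By this median Yy1+/+ replicate 3 stood below all 8 mutant libraries, and the other 3 wild-type libraries stood above all of them except replicate 1 of those labelled Yy1-/- Smc3+/-, which was above Yy1+/+ replicate 4.

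Single wild-type libraries were compared with the mutants to show what each contributes. Yy1+/+ replicate 2 was above every library labelled Yy1-/- Smc3+/- for 37 of 40 members and above every Yy1-/- library for 38 of 40. Yy1+/+ replicate 1 was above every library of these 2 genotypes for 23 and 31 members. Yy1+/+ replicate 4 was above them for 12 and 26 members. Yy1+/+ replicate 3 was above every library of these genotypes for 0 and 4 members. Shares over all tested genes were not computed for single libraries. These counts therefore compare the 4 wild-type libraries with each other and have no background.

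Within a genotype, the standard deviation (SD) of log2 CPM showed where the spread lay. The median SD of the members was 0.8 in the libraries labelled Yy1-/- Smc3+/-, 0.89 in Yy1-/- and 1.78 in Yy1+/+, and the median over all tested genes was 0.33, 0.4 and 0.35. Of 39 members, 10 were above the 90th percentile of all tested genes in the libraries labelled Yy1-/- Smc3+/-, 7 in Yy1-/- and 28 in Yy1+/+. The widest was Atf3, the stress-induced repressor of the ATF family, with an SD of 5.47 in Yy1+/+, where replicate 3 had no count. The narrowest was Cited2, which binds the coactivators CBP and p300, with an SD of 0.18 in Yy1+/+.

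**Figure D2:**
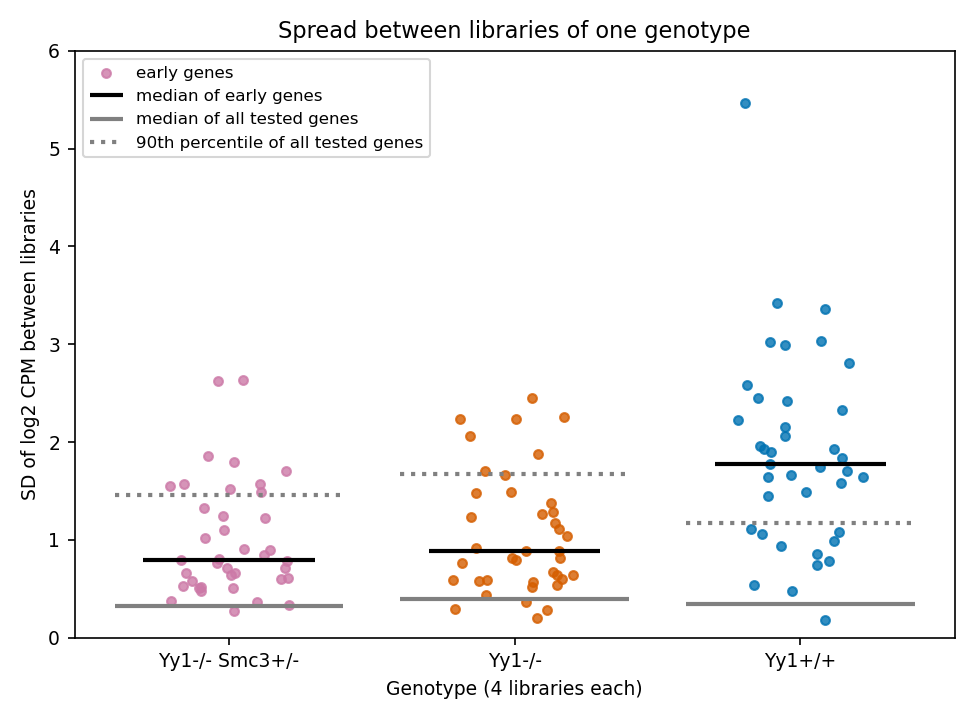
SD of log2 CPM between the 4 libraries of a genotype (vertical axis) for 39 early genes (points) in each genotype (horizontal axis); black lines are the members' medians, grey lines the median of all 16649 tested genes and dotted grey lines their 90th percentile. The mutant points lie mostly below the dotted line, and the Yy1+/+ points mostly above it.

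Upstream sequence is shown for 5 members whose promoters hold the sites by which early genes are known to be induced, beside their levels given further on. Windows of 250 bases upstream of a start site, from RefSeq on GRCm38.p6, matched 34 of the 40 members with 41 windows. The windows, the motifs and the members printed were chosen after the values were seen, and for Maff the start printed, 1 of 3, was chosen because it holds a site. Bases that lie in exons of protein-coding genes are left out, which shortens the stretches of Dusp5 and Ppp1r15a. Capitals mark the cAMP response element TGACGTCA and its core TGACG on either strand, the CArG box bound by serum response factor, and TATAAA on the gene's strand. The core is part of the full element, so the motifs overlap.
Dusp5, chr19:53528895-53529108, plus strand: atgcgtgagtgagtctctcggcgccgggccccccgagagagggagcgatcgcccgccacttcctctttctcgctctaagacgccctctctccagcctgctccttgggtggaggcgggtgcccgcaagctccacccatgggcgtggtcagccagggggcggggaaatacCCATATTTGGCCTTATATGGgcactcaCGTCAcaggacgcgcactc
Maff, chr15:79347270-79347519, plus strand: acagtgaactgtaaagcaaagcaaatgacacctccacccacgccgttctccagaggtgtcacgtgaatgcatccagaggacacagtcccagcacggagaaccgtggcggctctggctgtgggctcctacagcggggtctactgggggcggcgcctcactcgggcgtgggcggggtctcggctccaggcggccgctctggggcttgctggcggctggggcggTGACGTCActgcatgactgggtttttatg
Nr4a1, chr15:101266596-101266845, plus strand: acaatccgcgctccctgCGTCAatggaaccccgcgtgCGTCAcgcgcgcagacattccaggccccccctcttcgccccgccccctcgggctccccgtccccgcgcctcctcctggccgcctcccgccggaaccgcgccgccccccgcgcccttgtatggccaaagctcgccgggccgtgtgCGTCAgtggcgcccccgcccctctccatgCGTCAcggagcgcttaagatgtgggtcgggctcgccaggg
Ppp1r15a, chr7:45526269-45526329, minus strand: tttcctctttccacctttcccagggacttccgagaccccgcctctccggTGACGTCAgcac
Fos, chr12:85473640-85473889, plus strand: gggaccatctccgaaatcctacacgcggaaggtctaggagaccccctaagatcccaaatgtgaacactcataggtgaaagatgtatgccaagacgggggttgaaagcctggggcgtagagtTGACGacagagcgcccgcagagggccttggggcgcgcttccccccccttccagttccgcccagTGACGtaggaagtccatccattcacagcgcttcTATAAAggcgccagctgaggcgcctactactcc

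The motif counts over all windows put these sequences beside the rest of the genome. TGACGTCA was in 3 of the members' windows, those of Dusp1, Maff and Ppp1r15a, which is 7.32% of 41, and in 1.55% of all 32851 windows. The core TGACG was in 48.8% of the members' windows and in 17.8% of all windows. CArG boxes were in 14.6% of the members' windows and 1.47% of all windows, but they came from 3 genes, Dusp5, Egr2 and Zfp36, and 4 of the 6 windows are neighbouring starts of Egr2. TATAAA on the gene's strand was in 14.6% of the members' windows and 7.59% of all windows. The AP-1 site TGANTCA was in 4.88% of the members' windows and 6.75% of all. The YY1 motif AANATGGCG, searched on both strands, was in 0 of the members' windows and 1.12% of all windows. With so small a share of all windows, 0 of 41 does not set the members apart. The 50 bases after each start site were not searched, so a motif there would be missed. Whether YY1 binds these genes was not tested. Windows of 1 gene overlap each other, and a match is a string of letters, not a bound site.

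The Fos proteins, which pair with Jun proteins to form AP-1, differed strongly between libraries of 1 genotype, and no call was made for any of them. Fos had 1800, 592, 146 and 346 CPM in the libraries labelled Yy1-/- Smc3+/-, 38.6, 765, 279 and 31.3 CPM in Yy1-/- and 2350, 3070, 90 and 1280 CPM in Yy1+/+. The highest library of Fos was 12.4-fold above the lowest in those labelled Yy1-/- Smc3+/-, 24.5-fold in Yy1-/- and 34.1-fold in Yy1+/+. The lowest wild-type library was below all 4 libraries labelled Yy1-/- Smc3+/- and between the Yy1-/- libraries. The log2 fold change of Fos against Yy1+/+ was -1.23 ± 1.06 (SE) in the libraries labelled Yy1-/- Smc3+/- (edgeR adjusted p = 0.413) and -2.61 ± 1.11 in Yy1-/- (edgeR adjusted p = 0.0852). Fosb had 49.6, 9.66, 2.77 and 9.93 CPM in the libraries labelled Yy1-/- Smc3+/-, 0.254, 14.0, 4.44 and 0.884 CPM in Yy1-/- and 44.7, 112, 1.18 and 19.5 CPM in Yy1+/+. It followed the same order of libraries as Fos within Yy1+/+, and in Yy1-/- its change of -3.14 ± 1.17 just missed the threshold (edgeR adjusted p = 0.052). Fosl1 and Fosl2, which lack the transactivation domain of Fos, stood highest in 1 wild-type library. Fosl2 had 10.8, 4.14, 12.4 and 7.15 CPM in the libraries labelled Yy1-/- Smc3+/-, 4.91, 6.87, 3.7 and 5.73 CPM in Yy1-/- and 6.37, 49.2, 6.91 and 6.45 CPM in Yy1+/+. With Yy1+/+ replicate 2 left out the log2 fold change of Fosl2 was 0.39 in the libraries labelled Yy1-/- Smc3+/- and -0.31 in Yy1-/-, and that of Fosl1 was 0.76 and 0.27.

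**Figure D3:**
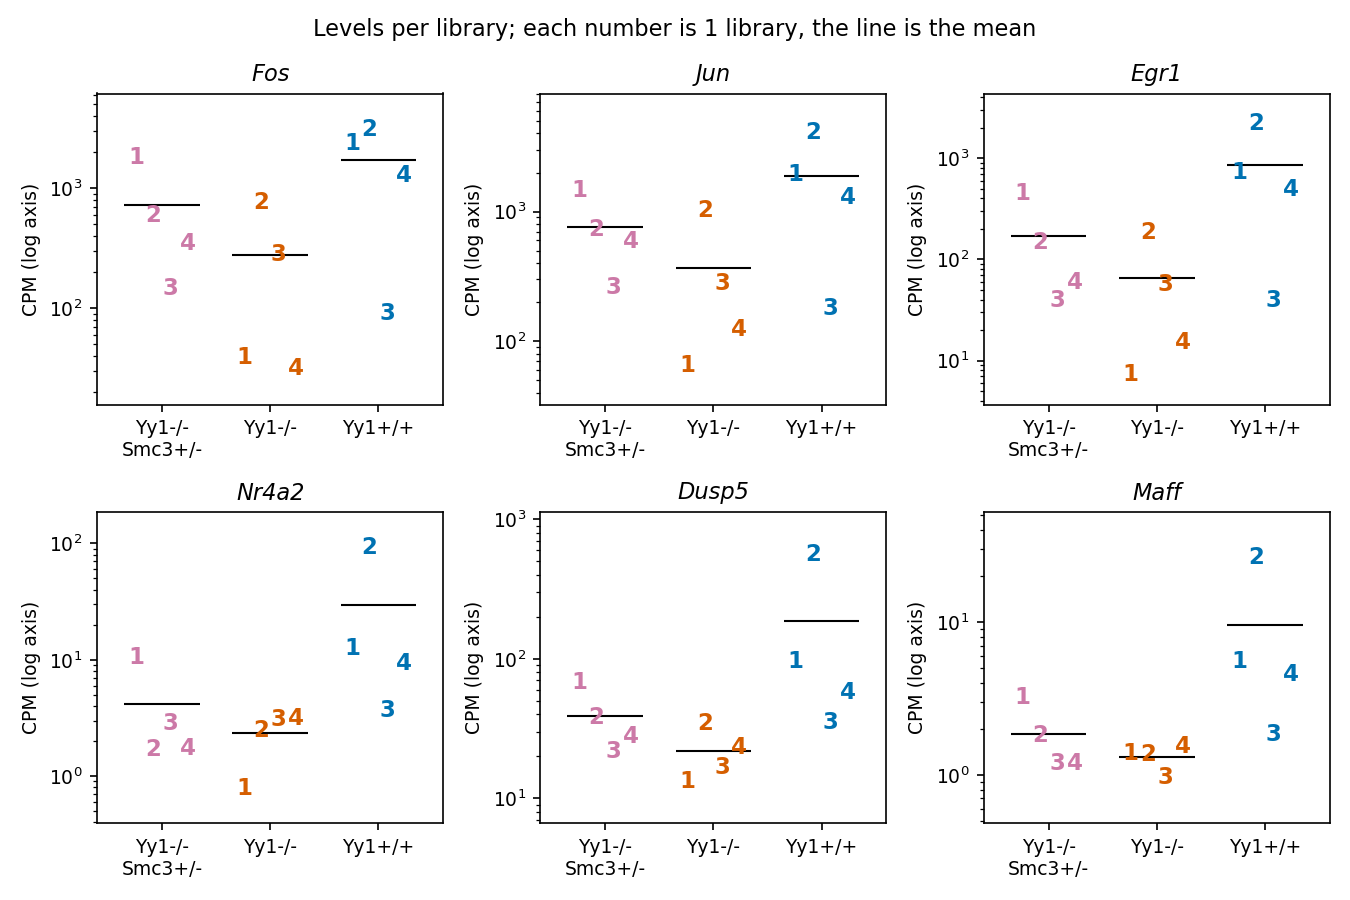
CPM on a log axis for Fos, Jun, Egr1, Nr4a2, Dusp5 and Maff in the 3 genotypes; each digit is the replicate number of 1 library and the line is the mean of the 4 libraries. For Fos, Jun and Egr1 the Yy1+/+ library numbered 3 lies among the mutant libraries; for Nr4a2, Dusp5 and Maff every Yy1+/+ library lies above the 4 Yy1-/- libraries.

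Of the Jun, Atf and Maf proteins, Maff was lower in both mutants and Jund in Yy1-/-, and 3 of the 5 were called in neither. Jun had 1450, 722, 261 and 586 CPM in the libraries labelled Yy1-/- Smc3+/-, 64.7, 1010, 278 and 123 CPM in Yy1-/- and 1920, 4070, 178 and 1290 CPM in Yy1+/+. Its log2 fold changes were -1.30 ± 0.88 (edgeR adjusted p = 0.287) and -2.34 ± 0.91 (edgeR adjusted p = 0.0603). Jund, the Jun protein with the most constant expression in many resting cells, had 334, 163, 74.6 and 127 CPM in the libraries labelled Yy1-/- Smc3+/-, 39.4, 149, 69.2 and 61.2 CPM in Yy1-/- and 433, 1310, 60.3 and 296 CPM in Yy1+/+. Its fold change was -2.72 ± 0.75 in Yy1-/- (edgeR adjusted p = 0.0127), a 6.59-fold lower level, and -1.59 ± 0.71 in the libraries labelled Yy1-/- Smc3+/- (edgeR adjusted p = 0.111). Without Yy1+/+ replicate 2 the change of Jund in Yy1-/- was -1.72. Maff, a small Maf protein without a transactivation domain, had 3.22, 1.8, 1.19 and 1.19 CPM in the libraries labelled Yy1-/- Smc3+/-, 1.37, 1.36, 0.965 and 1.53 CPM in Yy1-/- and 5.5, 26.3, 1.85 and 4.53 CPM in Yy1+/+. All 4 Yy1-/- libraries lay below all 4 wild-type libraries, and 3 of the 4 labelled Yy1-/- Smc3+/- did. Maff lies at chr15:79346621-79359076 on the plus strand of mm10. Its log2 fold changes were -2.38 ± 0.71 in the libraries labelled Yy1-/- Smc3+/- (edgeR adjusted p = 0.0223) and -2.90 ± 0.74 in Yy1-/- (edgeR adjusted p = 0.00865). With Yy1+/+ replicate 2 left out they were -1.08 (edgeR adjusted p = 0.084) and -1.61 (edgeR adjusted p = 0.0179). Junb, whose gene overlaps Prdx2 on the other strand, had 187 to 697 CPM in the libraries labelled Yy1-/- Smc3+/-, 141 to 369 CPM in Yy1-/- and 61.9 to 1550 CPM in Yy1+/+. Prdx2 reached 407 CPM, and the library kit does not mark the strand, so part of the reads of Junb could belong to it.

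Egr1 and Egr3, zinc finger factors that MAP kinase signalling induces through serum response factor, were lower in Yy1-/-, and Egr2 was not called. Egr1 had 443, 147, 38.9 and 59.0 CPM in the libraries labelled Yy1-/- Smc3+/-, 7.35, 185, 56.9 and 15.2 CPM in Yy1-/- and 724, 2170, 38.9 and 484 CPM in Yy1+/+. The wild-type library of lowest level equalled the lowest library labelled Yy1-/- Smc3+/-. The fold change of Egr1 was -2.31 ± 1.12 in the libraries labelled Yy1-/- Smc3+/- (edgeR adjusted p = 0.136) and -3.69 ± 1.19 in Yy1-/- (edgeR adjusted p = 0.0278), a 12.9-fold lower level. Egr3 had 1.41, 0.281, 0.0259 and 0.373 CPM in the libraries labelled Yy1-/- Smc3+/-, 0.0, 0.957, 0.0898 and 0.191 CPM in Yy1-/- and 1.8, 12.4, 0.0 and 1.8 CPM in Yy1+/+. A wild-type library without a count of Egr3 stood beside 3 that were above all Yy1-/- libraries, and the change in Yy1-/- was -3.63 ± 1.18 (edgeR adjusted p = 0.0278). Without Yy1+/+ replicate 2 neither gene was called in Yy1-/-, with changes of -2.65 for Egr1 (edgeR adjusted p = 0.0863) and -1.84 for Egr3 (edgeR adjusted p = 0.185). Both calls were also lost without Yy1-/- replicate 1, 3 or 4. Egr2 had 0.647 to 6.31 CPM in the libraries labelled Yy1-/- Smc3+/-, 0.853 to 4.37 CPM in Yy1-/- and 0.0861 to 13.0 CPM in Yy1+/+.

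The Nr4a genes encode orphan nuclear receptors that act without a known ligand, and both tested members were lower in Yy1-/-. Nr4a1, also called Nur77, had 179, 33.7, 10 and 14.1 CPM in the libraries labelled Yy1-/- Smc3+/-, 6.02, 55.8, 19.6 and 10.2 CPM in Yy1-/- and 261, 2860, 10.5 and 93.5 CPM in Yy1+/+. Its change in Yy1-/- was the largest of the members, -5.13 ± 1.51 or 34.9-fold lower (edgeR adjusted p = 0.0179), and it was -3.76 ± 1.4 in libraries labelled Yy1-/- Smc3+/- (edgeR adjusted p = 0.0591). Most of that size came from 1 library: without Yy1+/+ replicate 2 the change was -1.03 in the libraries labelled Yy1-/- Smc3+/-, and in Yy1-/- it was -2.40 and was not called (edgeR adjusted p = 0.11). The call in Yy1-/- was also lost without Yy1-/- replicate 1. Nr4a2, at chr2:57106830-57124003 on the minus strand, had 10.5, 1.68, 2.85 and 1.74 CPM in the libraries labelled Yy1-/- Smc3+/-, 0.788, 2.49, 3.05 and 3.13 CPM in Yy1-/- and 12.5, 93.2, 3.66 and 9.22 CPM in Yy1+/+. The Yy1-/- libraries all lay below the wild-type libraries, though replicate 3 of Yy1+/+ was close to the highest of them. Its log2 fold changes were -2.82 ± 0.90 (edgeR adjusted p = 0.0317) and -3.65 ± 0.96 (edgeR adjusted p = 0.0104) in these 2 genotypes. Leaving out Yy1+/+ replicate 2 gave -1.0, no longer called (edgeR adjusted p = 0.243), and -1.83 (edgeR adjusted p = 0.0455). Nr4a3, not tested, had expected counts of 11, 0, 8 and 0 in the libraries labelled Yy1-/- Smc3+/-, 0, 0, 1 and 10 in Yy1-/- and 11, 185, 0 and 5 in Yy1+/+. Most of its counts were in Yy1+/+ replicate 2.

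Of the Klf zinc finger genes, Klf6 was lower in both mutants, and Klf2 and Klf4 were called in neither. Klf6 had 117, 78.5, 54.9 and 53.2 CPM in the libraries labelled Yy1-/- Smc3+/-, 102, 135, 59.6 and 41.8 CPM in Yy1-/- and 285, 1210, 51.3 and 150 CPM in Yy1+/+. Its log2 fold changes were -2.48 ± 0.74 in the libraries labelled Yy1-/- Smc3+/- (edgeR adjusted p = 0.0228) and -2.33 ± 0.74 in Yy1-/- (edgeR adjusted p = 0.0256). With Yy1+/+ replicate 2 left out they were -1.10 (edgeR adjusted p = 0.127) and -0.94 (edgeR adjusted p = 0.169). Each call was also lost when replicate 3 or 4 of its own mutant genotype was left out. Klf2, which restrains proliferation and controls lymphocyte trafficking, had 155, 49.9, 17.4 and 32.8 CPM in the libraries labelled Yy1-/- Smc3+/-, 11.6, 66.7, 16.8 and 8.93 CPM in Yy1-/- and 124, 215, 5.02 and 86.7 CPM in Yy1+/+. Its level in Yy1+/+ replicate 3 was the lowest of all 12 libraries. Klf4, a factor of monocyte differentiation, had 1.53 to 12.2 CPM in the libraries labelled Yy1-/- Smc3+/-, 0.955 to 7.69 CPM in Yy1-/- and 0.775 to 31.0 CPM in Yy1+/+.

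Ier2 was called lower in Yy1-/-, and Ier3 and Ier5 were not. Ier2, a short-lived nuclear protein, had 708, 313, 232 and 234 CPM in the libraries labelled Yy1-/- Smc3+/-, 117, 419, 232 and 117 CPM in Yy1-/- and 884, 1860, 122 and 727 CPM in Yy1+/+. Its log2 fold change was -2.02 ± 0.66 in Yy1-/- (edgeR adjusted p = 0.0295) and -1.27 ± 0.64 in libraries labelled Yy1-/- Smc3+/- (edgeR adjusted p = 0.155). Without Yy1+/+ replicate 2 the change in Yy1-/- was -1.39 (edgeR adjusted p = 0.105), and 5 of the 8 ways to leave out 1 library ended the call. Ier3, a regulator of cell survival, had a change of -1.03 ± 0.49 in Yy1-/-, with 15.6 to 56.1 CPM there and 18.1 to 108 CPM in Yy1+/+ (edgeR adjusted p = 0.121). Ier5 differed least of the group, with 0.04 ± 0.39 in the libraries labelled Yy1-/- Smc3+/- and a 95% interval of -0.80 to 0.88.

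The dual-specificity phosphatases, which remove phosphate from MAP kinases and so close the loop, split by member. Dusp5, which acts on ERK in the nucleus, had 67.5, 37.7, 21.7 and 27.7 CPM in the libraries labelled Yy1-/- Smc3+/-, 13.3, 34.4, 16.7 and 23.0 CPM in Yy1-/- and 95.3, 563, 34.8 and 57.8 CPM in Yy1+/+. All Yy1-/- libraries lay below all wild-type libraries, by as little as 34.4 against 34.8 CPM. The log2 fold changes were -2.28 ± 0.73 (edgeR adjusted p = 0.032) and -3.10 ± 0.76, which is 8.59-fold lower in Yy1-/- (edgeR adjusted p = 0.0069). With Yy1+/+ replicate 2 left out they were -0.70 (edgeR adjusted p = 0.243) and -1.52 (edgeR adjusted p = 0.0178). Dusp1, a nuclear phosphatase of p38 and JNK, had 1200, 394, 96.9 and 178 CPM in the libraries labelled Yy1-/- Smc3+/-, 111, 399, 131 and 31.9 CPM in Yy1-/- and 1140, 2180, 71.8 and 849 CPM in Yy1+/+. It passed in Yy1-/- by little, at -2.65 ± 0.97 (edgeR adjusted p = 0.0489), and 6 of the 8 ways to leave out 1 library ended that call. The gene model of Dusp1 overlaps Ergic1 on the other strand, which reached 191 CPM. Dusp2, a phosphatase of activated blood cells, had 272, 134, 144 and 124 CPM in the libraries labelled Yy1-/- Smc3+/-, 85.4, 135, 171 and 104 CPM in Yy1-/- and 341, 427, 121 and 263 CPM in Yy1+/+. Its change in Yy1-/- was -1.22 ± 0.36 (edgeR adjusted p = 0.0175), and without Yy1+/+ replicate 2 it was -0.97 (edgeR adjusted p = 0.0532). Dusp6, the cytoplasmic phosphatase of ERK and a lasting read-out of its activity, had 118, 134, 84.2 and 83.9 CPM in the libraries labelled Yy1-/- Smc3+/-, 201, 177, 122 and 83.7 CPM in Yy1-/- and 123, 181, 84.6 and 96.9 CPM in Yy1+/+. It was not called, with a change of 0.26 in Yy1-/- and a 95% interval of -0.36 to 0.89.

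The RNA decay genes encode proteins that shorten the life of early transcripts, and only Btg1 was called, in 1 comparison. Zfp36, or tristetraprolin, binds AU-rich elements and had 603, 307, 160 and 264 CPM in the libraries labelled Yy1-/- Smc3+/-, 63.9, 399, 157 and 63.1 CPM in Yy1-/- and 657, 882, 64.6 and 438 CPM in Yy1+/+. Its change was -0.61 ± 0.70 in the libraries labelled Yy1-/- Smc3+/- (edgeR adjusted p = 0.544) and -1.58 ± 0.72 in Yy1-/- (edgeR adjusted p = 0.103). Btg1, an antiproliferative partner of the deadenylase complex, had 65.3, 46.2, 66.8 and 50.1 CPM in the libraries labelled Yy1-/- Smc3+/-, 101, 81.1, 44.6 and 45.8 CPM in Yy1-/- and 123, 282, 45.8 and 100 CPM in Yy1+/+. Its change was -1.27 ± 0.44 in the libraries labelled Yy1-/- Smc3+/- (edgeR adjusted p = 0.0417) and -1.02 ± 0.43 in Yy1-/- (edgeR adjusted p = 0.0829). The call does not set the mutants apart, because the difference between them was -0.25, with a 95% interval of -1.19 to 0.68. It was lost without any 1 of the 4 libraries labelled Yy1-/- Smc3+/- and without Yy1+/+ replicate 1 or 2. Zfp36l1, a relative of Zfp36, had 8.2 to 14.5 CPM in the libraries labelled Yy1-/- Smc3+/-, 7.5 to 17.0 CPM in Yy1-/- and 7.56 to 26.2 CPM in Yy1+/+, and it was called in neither comparison.

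The NF-kB and cytokine feedback genes, inhibitors that NF-kB or STAT signalling induces, were not called by edgeR in either mutant (0 of 4, with 1 of 4 at an unadjusted p under 0.05 in each). Nfkbia, which encodes the inhibitor that holds NF-kB in the cytoplasm, had 275, 158, 170 and 124 CPM in the libraries labelled Yy1-/- Smc3+/-, 333, 212, 201 and 124 CPM in Yy1-/- and 140, 416, 90.8 and 136 CPM in Yy1+/+. Its change in Yy1-/- was 0.15, with a 95% interval of -0.77 to 1.07. Socs3, an inhibitor of JAK kinases, had 86.4, 32.4, 36.2 and 50.6 CPM in the libraries labelled Yy1-/- Smc3+/-, 97.6, 49.4, 33.8 and 49.6 CPM in Yy1-/- and 34.5, 175, 11.6 and 26.3 CPM in Yy1+/+. The sign turned when 1 library was left out: the change in Yy1-/- was -0.11 with all libraries and 1.25 without Yy1+/+ replicate 2 (edgeR adjusted p = 0.0497). Tnfaip3, or A20, an enzyme that edits ubiquitin chains, was near the threshold at -1.18 ± 0.50 in the libraries labelled Yy1-/- Smc3+/- (edgeR adjusted p = 0.0881) and -1.32 ± 0.50 in Yy1-/- (edgeR adjusted p = 0.0552). Nfkbiz, an atypical nuclear inhibitor, had 14.1 to 41.3 CPM in the libraries labelled Yy1-/- Smc3+/-, 12.1 to 28.0 CPM in Yy1-/- and 8.79 to 97.6 CPM in Yy1+/+.

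Of the secreted proteins, Ccl4 and Ccn1 were lower in both mutants, Ccl3 was not called, and Cxcl2 had positive estimates. Ccl4, a chemokine of macrophages, had 28.8, 10.8, 13.8 and 6.26 CPM in the libraries labelled Yy1-/- Smc3+/-, 9.81, 18.8, 12.1 and 4.75 CPM in Yy1-/- and 62.5, 117, 6.7 and 46.5 CPM in Yy1+/+. Its log2 fold changes were -1.96 ± 0.67 (edgeR adjusted p = 0.0404) and -2.35 ± 0.68 (edgeR adjusted p = 0.0163). Leaving out Yy1+/+ replicate 2 ended both calls, at -1.37 (edgeR adjusted p = 0.133) and -1.76 (edgeR adjusted p = 0.0542), and 6 of the 8 ways to leave out 1 library ended the first. Yy1+/+ replicates 1, 2 and 4 lay above all 8 mutant libraries, and replicate 3 lay under most of them. Ccn1, a matricellular protein induced by serum and by YAP, lies at chr3:145646976-145649981 on the minus strand and had 2.98, 1.08, 0.776 and 0.0 CPM in the libraries labelled Yy1-/- Smc3+/-, 0.407, 0.379, 0.382 and 0.0 CPM in Yy1-/- and 4.17, 24.1, 0.129 and 6.22 CPM in Yy1+/+. It had the smallest adjusted p of the members in Yy1-/-, at -4.90 ± 1.19 (edgeR adjusted p = 0.00591), and the change was -2.83 ± 0.94 in libraries labelled Yy1-/- Smc3+/- (edgeR adjusted p = 0.035). Leaving out Yy1+/+ replicate 2 gave -3.56 in Yy1-/- (edgeR adjusted p = 0.0203) and -1.49, no longer called, in libraries labelled Yy1-/- Smc3+/- (edgeR adjusted p = 0.193). Cxcl2, a neutrophil chemokine, had 12.0, 4.23, 3.39 and 3.6 CPM in the libraries labelled Yy1-/- Smc3+/-, 4.09, 7.99, 0.449 and 0.287 CPM in Yy1-/- and 2.16, 4.66, 0.0431 and 2.28 CPM in Yy1+/+. Its change was 1.31 ± 0.84 in the libraries labelled Yy1-/- Smc3+/- (edgeR adjusted p = 0.261), so a rise was not shown.

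Of the stress and growth regulators, Rhob was lower in both mutants, Cited2 and Ppp1r15a in Yy1-/-, and Gadd45b in neither. Rhob, a small GTPase induced by stress and growth factors, lies at chr12:8497661-8500009 on the minus strand and had 24.7, 14.3, 10 and 10.3 CPM in the libraries labelled Yy1-/- Smc3+/-, 9.15, 30.0, 8.04 and 9.0 CPM in Yy1-/- and 70.8, 41.4, 16 and 66.8 CPM in Yy1+/+. For this gene the highest wild-type library was replicate 1, and without replicate 2 the changes were -1.78 in the libraries labelled Yy1-/- Smc3+/- and -1.86 in Yy1-/-. With all libraries they were -1.71 ± 0.51 (edgeR adjusted p = 0.0228) and -1.78 ± 0.51 (edgeR adjusted p = 0.0161). The first of these calls was lost without Yy1+/+ replicate 1 or 4. Cited2 had 125, 107, 106 and 67.8 CPM in the libraries labelled Yy1-/- Smc3+/-, 85.2, 120, 76.6 and 82.4 CPM in Yy1-/- and 145, 158, 117 and 144 CPM in Yy1+/+. Its change in Yy1-/- was small and called, at -0.63 ± 0.19 (edgeR adjusted p = 0.0218), and in libraries labelled Yy1-/- Smc3+/- it was -0.48 ± 0.19 (edgeR adjusted p = 0.0781). The call of Cited2 was lost without Yy1-/- replicate 3. Ppp1r15a, or Gadd34, which restores translation after stress, had 284, 124, 50.2 and 69.7 CPM in the libraries labelled Yy1-/- Smc3+/-, 30.9, 132, 56.3 and 27.3 CPM in Yy1-/- and 379, 1820, 55.3 and 302 CPM in Yy1+/+. Its change was -3.37 ± 0.91 in Yy1-/- (edgeR adjusted p = 0.0118) and -2.28 ± 0.87 in libraries labelled Yy1-/- Smc3+/- (edgeR adjusted p = 0.0646). Leaving out Yy1+/+ replicate 2 gave -1.99 for Ppp1r15a in Yy1-/-, no longer called (edgeR adjusted p = 0.0502), and -0.89 in libraries labelled Yy1-/- Smc3+/-. Gadd45b, a stress sensor of the p38 and JNK pathways, had 17.5 to 34.7 CPM in the libraries labelled Yy1-/- Smc3+/-, 16.5 to 22.4 CPM in Yy1-/- and 11.4 to 27.8 CPM in Yy1+/+, and it was not called.

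**Figure D4:**
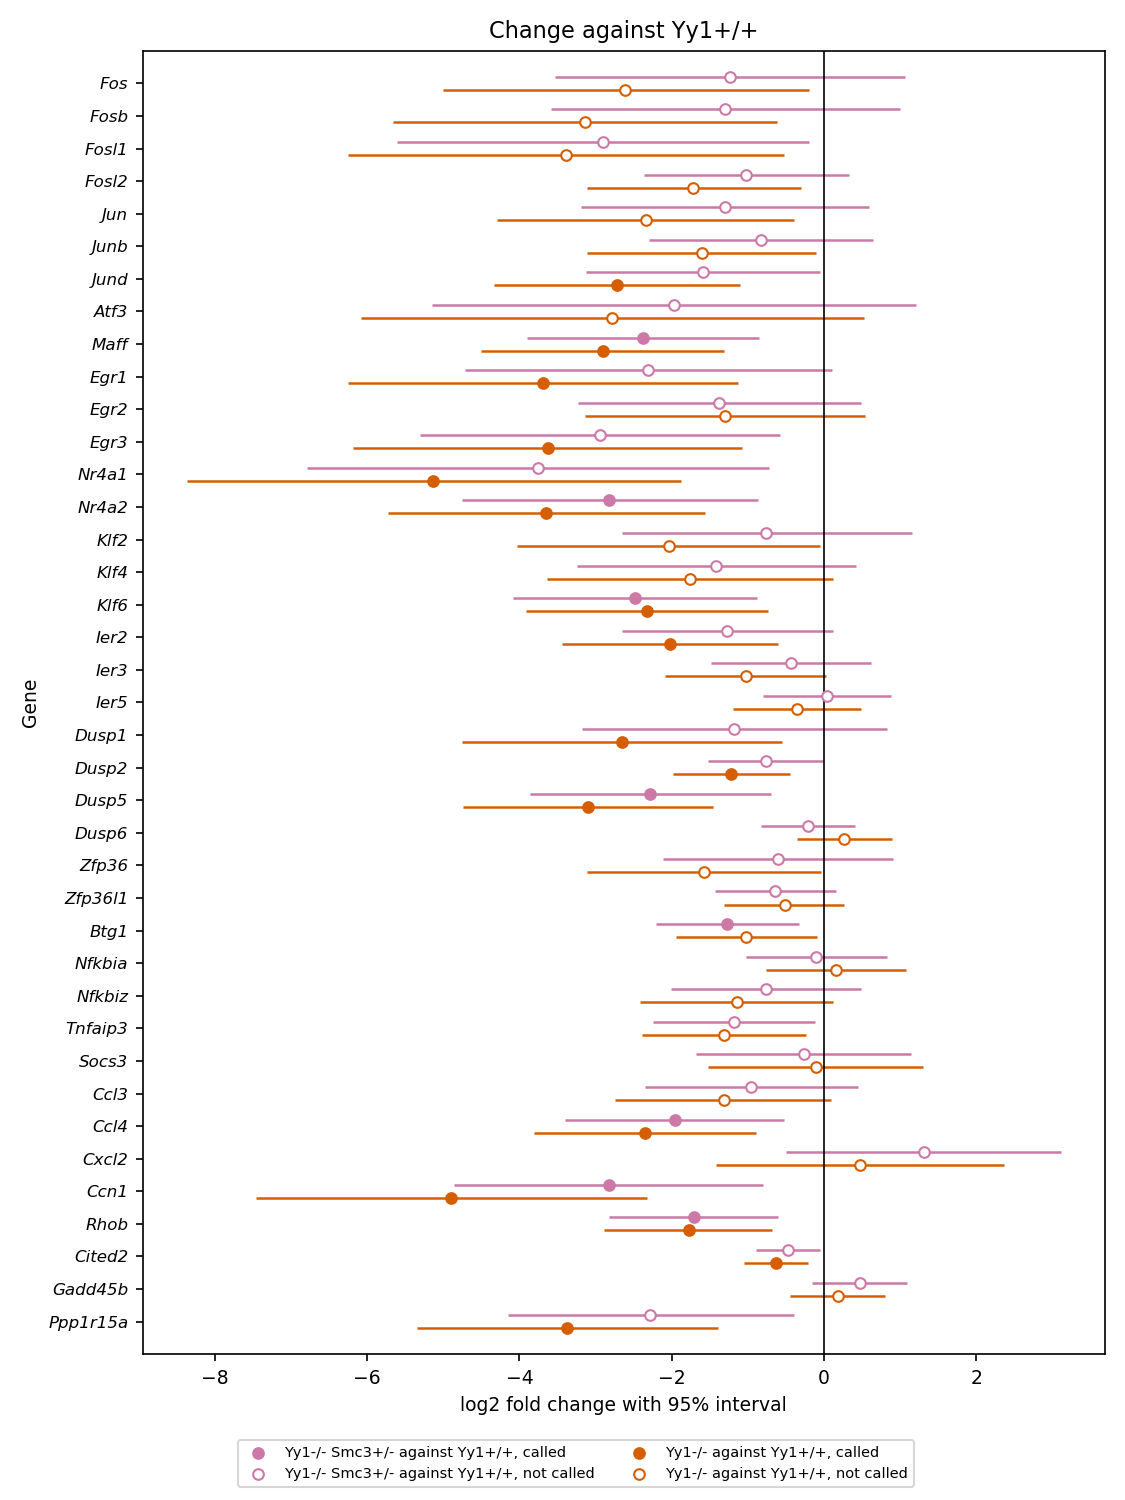
Log2 fold change against Yy1+/+ (horizontal axis) with its 95% interval for the 39 tested members (down the page); the upper mark of each pair is the genotype labelled Yy1-/- Smc3+/- and the lower one is Yy1-/-, and filled marks are called at an adjusted p under 0.05. Filled marks number 8 and 16, all left of 0.

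Across roles, 7 members were called lower in both mutants, Ccl4, Ccn1, Dusp5, Klf6, Maff, Nr4a2 and Rhob. Of the rest, 9 were called in Yy1-/- and not in the libraries labelled Yy1-/- Smc3+/-, and Btg1 was the 1 called the other way. These lists are not a test of a difference between the mutants. The direct comparison of the libraries labelled Yy1-/- Smc3+/- with Yy1-/- called 0 of 39 members in either direction, where edgeR called 0.036% of all tested genes higher and 0% lower. The smallest adjusted p among the members was 0.806 (edgeR), 0 members had an unadjusted p under 0.05, and DESeq2 called 0. No member had libraries of these genotypes that did not overlap, where 1.13% of all tested genes lay wholly higher and 0.883% wholly lower. The estimates were above 0 for 32 of 39 members, with a median log2 fold change of 0.59 against 0 for all genes. Without replicate 1 of the libraries labelled Yy1-/- Smc3+/- the median was 0.11, and 17 of 39 estimates were below 0. For Fos the 95% interval of that difference was -0.93 to 3.68 on the log2 scale, and for Dusp1 it was -0.55 to 3.49. Both intervals hold 0 and reach much further above it than below, so a sizeable rise of these genes could have been missed.

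Levels compared between genes use TPM, which corrects for transcript length. By mean TPM, Fos was first in the libraries labelled Yy1-/- Smc3+/- with 487 TPM, followed by Ier2 with 371 TPM. In Yy1-/- Ier2 was first with 209 TPM, ahead of Nfkbia with 191 and Fos with 178 TPM. In Yy1+/+ Fos led with 1240 TPM, followed by Ier2 with 957, Jun with 830 and Dusp1 with 815 TPM. The lowest was Nr4a3, with 0.0225, 0.015 and 0.175 TPM in these 3 genotypes. Fos and Ier2 do not differ beyond their spread in any genotype: Fos alone had 93.1 to 1190 TPM in the libraries labelled Yy1-/- Smc3+/-, 21.9 to 492 TPM in Yy1-/- and 75.8 to 1980 TPM in Yy1+/+.

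The calls depended on which library was left out. In Yy1-/- against Yy1+/+ the count of members lower was 12, 22, 10 and 11 without Yy1-/- replicates 1 to 4 in turn, and 17, 7, 31 and 19 without Yy1+/+ replicates 1 to 4. Nr4a3 passed the filter in most of these fits and is 1 of the genes counted without Yy1+/+ replicate 1, 3 or 4, so that 16, 30 and 18 of the 39 members tested with all libraries were lower there. With Yy1+/+ replicate 2 left out, 18.8% of all genes were lower, as with all libraries, so the fall to 7 members was not shared by all genes. With Yy1+/+ replicate 3 left out, 16.4% of all genes were lower beside 31 members. Over the 8 fits of this comparison the share of all genes lower lay between 16% and 18.8%. In that comparison 6 members kept their call in all 8 fits, Jund, Maff, Nr4a2, Dusp5, Ccn1 and Rhob. In libraries labelled Yy1-/- Smc3+/- against Yy1+/+ the count was 12, 3, 0 and 0 without its replicates 1 to 4 and 6, 1, 16 and 7 without Yy1+/+ replicates 1 to 4, of which 5, 15 and 6 were without Nr4a3 when replicate 1, 3 or 4 was left out. No member kept its call there in all 8 fits. The share of all genes lower in these fits lay between 12.9% and 15.9%. The 2 counts of 0 by edgeR, without replicate 3 or 4, stand beside 12 and 10 members at an unadjusted p under 0.05. The median log2 fold change without Yy1+/+ replicate 2 was -0.53 in the libraries labelled Yy1-/- Smc3+/- and -0.94 in Yy1-/-. No member was called in either comparison (0 by edgeR, with 9 members at an unadjusted p under 0.05 in the libraries labelled Yy1-/- Smc3+/- and 10 in Yy1-/-) without the 3 mutant libraries that had over 10% of the wild-type mean of Yy1, which are Yy1-/- replicates 3 and 4 and replicate 3 of those labelled Yy1-/- Smc3+/-. With those libraries left out, 2 libraries of Yy1-/- remained, and 15% of all genes were still lower in each comparison. The median log2 fold change of the members was then -1.14 in the libraries labelled Yy1-/- Smc3+/- and -1.53 in Yy1-/-. Estimates were below 0 for 37 and 35 of 40 members, and the smallest adjusted p (edgeR) was 0.0549 and 0.0502. The loss of calls is thus not a loss of the estimated change.

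**Figure D5:**
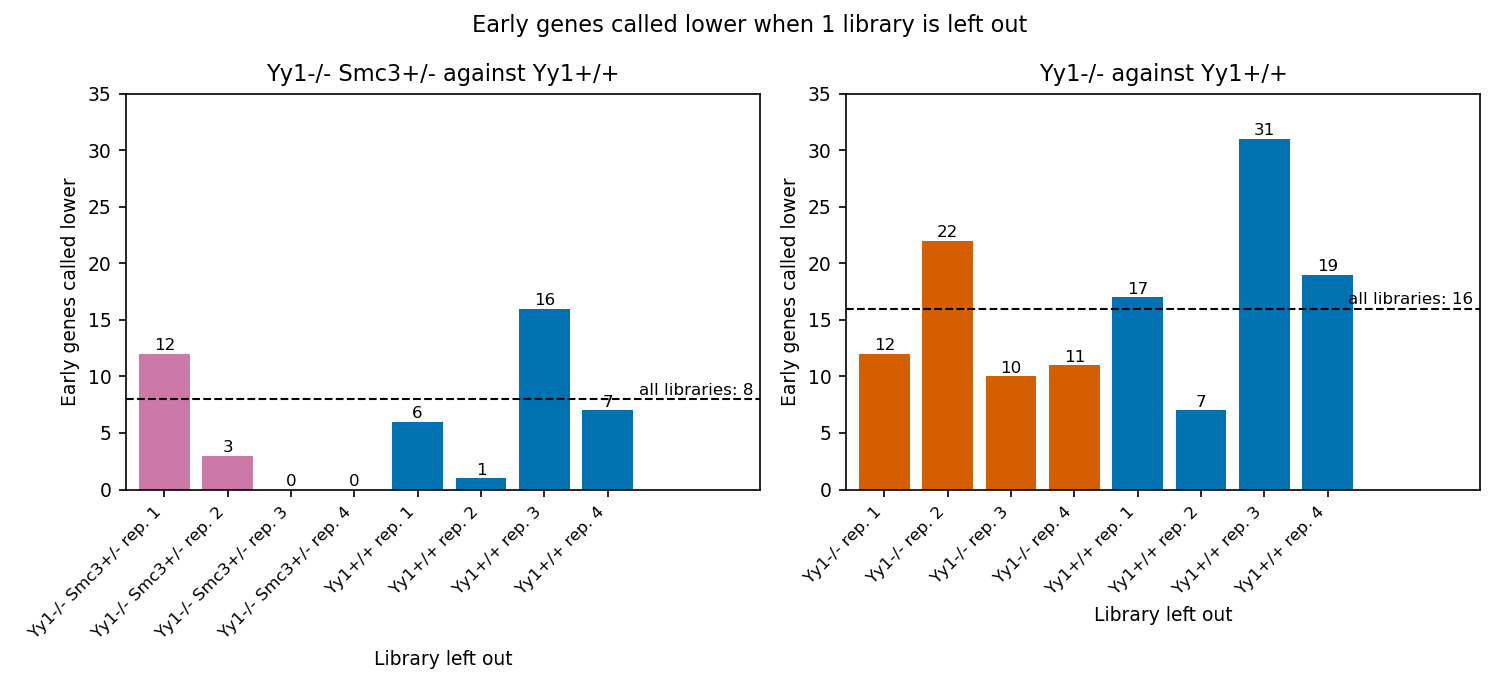
Number of early genes called lower (bar height) when the library named on the horizontal axis is left out, for the libraries labelled Yy1-/- Smc3+/- against Yy1+/+ (left) and Yy1-/- against Yy1+/+ (right); the dashed lines at 8 and 16 are the counts with all libraries, and Nr4a3 is tested and counted in some fits. The tallest bars, 16 and 31, follow the removal of Yy1+/+ replicate 3, and removal of Yy1+/+ replicate 2 leaves 1 and 7.

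Genes that act before and beside the members were described from lists chosen with earlier results known. Among all tested genes, 16.7% were lower and 13.1% higher in the libraries labelled Yy1-/- Smc3+/-. In Yy1-/- these shares were 18.8% and 16.3%. Of 20 kinase genes of the MAP kinase route, 2 were higher and 7 lower in the libraries labelled Yy1-/- Smc3+/-, and 3 were higher and 5 lower in Yy1-/-. Their median log2 fold change was -0.12 in the libraries labelled Yy1-/- Smc3+/- and -0.18 in Yy1-/-, and single kinases changed more than members such as Ier5. Mapk9 had -0.69 ± 0.10 in the libraries labelled Yy1-/- Smc3+/- (edgeR adjusted p = 0.000352) and -0.72 ± 0.10 in Yy1-/- (edgeR adjusted p = 0.00024), and Mapkapk2, a kinase under p38, had 0.85 ± 0.14 and 0.77 ± 0.14. Of 16 genes for SRF, CREB and their partners, 0 were called in the libraries labelled Yy1-/- Smc3+/- (3 at an unadjusted p under 0.05). In Yy1-/-, 2 of the 16 were lower (12.5%), Crtc2 and Elk3. Of 10 NF-kB genes, 3 were higher in the libraries labelled Yy1-/- Smc3+/- (30.0%), Nfkb1, Chuk and Relb. The same 3 and Nfkbib were higher in Yy1-/- (40.0%), with none lower in either. Relb, a subunit of the alternative NF-kB route, had 0.83 ± 0.21 (edgeR adjusted p = 0.00929) and 0.73 ± 0.21 (edgeR adjusted p = 0.0151).

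A second list of 24 early genes, of which 23 were tested, and 14 chaperone genes were read beside the members. Of the 23, 7 were lower (30.4%) and 1, Arid5a, higher (4.35%) in the libraries labelled Yy1-/- Smc3+/-. In Yy1-/-, 10 were lower (43.5%) and 0 higher. Among all tested genes, 16.7% and 18.8% were lower and 13.1% and 16.3% higher in the same 2 comparisons. Myc had 386, 368, 456 and 352 CPM in the libraries labelled Yy1-/- Smc3+/-, 277, 332, 360 and 502 CPM in Yy1-/- and 765, 593, 708 and 654 CPM in Yy1+/+. Its wild-type libraries lay together, all above all mutants, with changes of -0.80 ± 0.17 (edgeR adjusted p = 0.00346) and -0.89 ± 0.17 (edgeR adjusted p = 0.00159). Btg2 followed the members instead, with 51.4 to 752 CPM in Yy1+/+ and a change of -2.01 ± 0.72 in Yy1-/- (edgeR adjusted p = 0.0449). Of the 14 chaperone genes, which heat and protein damage induce, 8 were lower in each mutant (57.1%). Hspa1b, which encodes an inducible HSP70, had 237, 35.2, 11.6 and 40.6 CPM in the libraries labelled Yy1-/- Smc3+/-, 1.14, 151, 8.91 and 15.2 CPM in Yy1-/- and 839, 2770, 85.6 and 1300 CPM in Yy1+/+. Hspa1b shares nearly all of its sequence with Hspa1a, so the division of reads between them is uncertain. Within Yy1+/+, Hspa1b had replicate 2 highest and replicate 3 lowest, as for 37 of 40 members.

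Markers of cell types were read beside these results. Among all tested genes, 16.7% were lower and 13.1% higher in the libraries labelled Yy1-/- Smc3+/-, and 18.8% lower and 16.3% higher in Yy1-/-. Each marker list is short, so 1 gene moves its share by much. Of 11 stem and progenitor markers, 7 were lower and 1 higher in the libraries labelled Yy1-/- Smc3+/-, and 8 were lower and 1 higher in Yy1-/-. Their summed level was 2010 to 2350 CPM in the libraries labelled Yy1-/- Smc3+/-, 2010 to 2300 CPM in Yy1-/- and 3400 to 3850 CPM in Yy1+/+. Of 12 monocyte markers, 7 and 9 were higher in the same 2 genotypes, and their sums were 746 to 1730, 634 to 7730 and 523 to 1270 CPM. Within Yy1-/- the monocyte sums were 7730, 5260, 634 and 900 CPM in replicates 1 to 4. In replicates 1 and 2, 14 of 40 members were higher than in both replicates 3 and 4, among them Atf3, Cxcl2, Klf4, Egr2, Klf6, Dusp6 and Btg1, and 2, Nr4a2 and Nr4a3, were lower. The other 24 members, Fos and Jun among them, did not divide these libraries. This split of the libraries was taken from the monocyte sums. The same count over all tested genes was not made, so the 14 members have no background to be read against. Neutrophil markers summed to 1860 to 17000 CPM in the libraries labelled Yy1-/- Smc3+/-, 4420 to 7310 CPM in Yy1-/- and 8410, 10600, 2700 and 3490 CPM in Yy1+/+ replicates 1 to 4. Mast cell and basophil markers summed to 114 to 248, 147 to 188 and 358 to 654 CPM. B and plasma cell markers summed to 9270 to 14300, 5300 to 10900 and 2870 to 8840 CPM in the same order. Mast cell and basophil markers had 3 lower and 1 higher of 8 in each mutant, neutrophil markers 2 higher of 10 in each, and B and plasma cell markers 2 and 0 higher of 6 tested. Erythroid markers summed to 6.53 to 264, 12.7 to 509 and 391 to 944 CPM, with 2 and 1 of 8 lower. T and NK cell markers summed to 50.1 to 245, 42.0 to 180 and 127 to 267 CPM, with 4 of 7 tested higher in each mutant. Endothelial and stromal markers summed to 75.9 to 103, 70.3 to 88.3 and 98.6 to 116 CPM, with 1 of 5 tested lower in each mutant and 1 higher in Yy1-/-. Among all 8 lists only Pdgfra, a stromal marker, was at 0 in every library of a genotype, Yy1+/+. The part of these cells in the levels of the early genes was not tested.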

How the data were processed

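RNA of sorted LSK cells was sequenced in 12 libraries made with SMART-Seq V4, which does not mark the strand, per the labels' protocols. The submitters' processing notes name STAR 2.5.2b, RSEM 1.3.0 and build mm10. The deposited tables hold expected counts, TPM and FPKM for each gene, made by the authors, and FPKM was not used. Expected counts were rounded, filtered with filterByExpr (minimum count 10, minimum total 15), scaled by TMM and fitted in 1 edgeR 4.0.16 quasi-likelihood model over all 12 libraries with a term per genotype. P-values were adjusted by Benjamini-Hochberg over 16649 genes, with a threshold of 0.05. The newer quasi-likelihood estimate was chosen after both had been seen, so this choice was not fixed in advance. The earlier estimate called 4 members lower in the libraries labelled Yy1-/- Smc3+/- and 14 in Yy1-/-, against 8 and 16. It called 13.4% and 15.6% of all tested genes lower in these comparisons. The 4 of 39 members are a smaller share than that of all genes. The self-test used simulated counts. SE is the size of the log2 fold change over the square root of F, and SD of log2 CPM used a prior count of 2. Gene IDs were matched to GENCODE M21 annotation, 55094 with their version, 300 with another and 93 not at all. The labels give no replicate numbers, so numbers follow accession order. The members, lists, motifs and the genes named were chosen with earlier results of these data known. Alternatives used DESeq2 1.42.0, and limma 3.58.1 on log2 TPM with a pseudocount of 1 or 0.1. All 39 tested members are named or counted by role.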

Additional observations from a re-analysis of the deposited data

Results flagged for a closer look

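In 26 of 120 groups of 4 libraries (40 genes in 3 genotypes), 1 library stood apart from the other 3 by more than Dixon's 95% critical value for the gap over the range. Chance flags about 1 group in 20 where values follow a normal distribution, which is 6.0 of 120. The ratio was taken on CPM and not on a log scale, and CPM here is skewed towards high values. The 26 groups therefore cannot be read against 6.0 as an excess. The genes are also not independent, since the same libraries recur. Yy1-/- Smc3+/- replicate 1 was the high library for 9 genes, with ratios of 0.847 for Fosb, 0.921 for Fosl1, 0.916 for Atf3, 0.86 for Nr4a1, 0.868 for Nr4a2, 0.861 for Klf4, 0.83 for Ier2, 0.863 for Dusp2 and 0.902 for Cxcl2. Yy1-/- replicate 2 was the high library for Junb (0.831), Klf2 (0.863) and Rhob (0.949). Yy1-/- replicate 4 was high for Nr4a3 (0.906) and low for Ccn1 (0.931), which had no count there, and Yy1-/- replicate 3 was low for Gadd45b (0.844). Yy1+/+ replicate 2 was the high library for 11 genes, with ratios of 0.972 for Fosl1, 0.987 for Fosl2, 0.879 for Atf3, 0.851 for Maff, 0.855 for Egr3, 0.912 for Nr4a1, 0.901 for Nr4a2, 0.929 for Nr4a3, 0.885 for Dusp5, 0.847 for Nfkbia and 0.859 for Socs3. That library is also the deepest, with 69086104 summed counts, and the part of depth in its levels was not tested.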

How the results depend on the processing

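Of 1982 values of single members under an alternative, 1810 kept their direction and side of the threshold or were uncalled in both, 117 lost the call, 54 gained it and 1 reversed. The reversed value was Socs3 in Yy1-/-, 1.25 without Yy1+/+ replicate 2, where it was the 1 member called higher, within a range of -0.52 to 1.25 with 1 library left out; the cause was not tested. With 1 library left out, the members lower ranged from 0 to 16 in the libraries labelled Yy1-/- Smc3+/- and from 7 to 31 in Yy1-/-. The share of all genes lower ranged from 12.9% to 15.9% and from 16% to 18.8% in the same fits. The members higher in Yy1-/- ranged from 0 to 1. Without the libraries with residual Yy1 reads both counts of lower members were 0, with fewer samples and median log2 fold changes of -1.14 and -1.53. In the libraries labelled Yy1-/- Smc3+/- the count of 8 was 4 with log2 TPM plus 1, 4 with log2 TPM plus 0.1, 5 with only the 2 genotypes compared and 4 with the earlier quasi-likelihood method, which was added after seeing the data. The count of 16 in Yy1-/- was 15, 15, 14 and 14 under the same 4 alternatives. DESeq2's Wald test called 9 and 22 of 38 tested, where it called 16.8% and 18.8% of all genes lower. With log2 TPM plus 0.1 the shares of all genes lower were 19.9% and 25.4%. They were 19.3% and 17.5% with only the 2 genotypes compared, and 13.4% and 15.6% with the earlier quasi-likelihood method. Scaling by TPM plus 1 shifted the median of all genes to -0.11 and -0.18, and gave 7.8% higher and 20.9% lower in the libraries labelled Yy1-/- Smc3+/- and 8.68% higher and 26% lower in Yy1-/-. No paired analysis was possible because the labels carry no replicate numbers that pair libraries. With 4 libraries per genotype, the spread between libraries limits these calls.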
